A study of Mus musculus with 24 samples.

Results

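The ionotropic glutamate receptor subunits described here were 10 genes taken by name: the AMPA receptor genes Gria1, Gria2, Gria3 and Gria4, and the NMDA receptor genes Grin1, Grin2a, Grin2b, Grin2c, Grin2d and Grin3a. They were read through every probe set, the group of short oligonucleotides that reports one transcript, whose only gene symbol in the platform annotation was one of these names. That gave 21 of the 45037 probe sets that were not controls, and they covered 9 of the 10 genes. A mean of at least 4 on the log2 scale in the arrays of striatum or of cerebellum was required for a test, and 16 of the 21 probe sets, from 8 genes, met it, as did 20738 probe sets in all. Grin1 had 0 such probe sets and was not analysed here.

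The study profiled RNA from the striatum, the forebrain nucleus that degenerates first in Huntington's disease, and from the cerebellum of young mice. Mice labelled HdhQ111/HdhQ111 carried on both copies of the mouse huntingtin gene a knocked-in CAG repeat that lengthens the polyglutamine stretch, and are called Q111. Wild-type mice were labelled Hdh+/Hdh+, with the short mouse repeat. There were 6 arrays in each of 4 groups (Q111 striatum, wild-type striatum, Q111 cerebellum and wild-type cerebellum), numbered 1 to 6 within a group. The allele is present in every cell rather than driven by a tissue promoter. Ages were given as a range of 3 to 10 weeks for the whole study, and neither sex nor whether both tissues came from the same animals was stated. Replicates were labelled biological, with no animal named, so the p-values measure the spread between these arrays, which may in part be technical.

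Array medians lay between 3.38 and 3.51 on the log2 scale, and arrays of a group correlated at 0.983 to 0.993 over the tested probe sets. Defining markers matched the tissue labels. Drd1, the dopamine receptor of striatal projection neurons, averaged 11.14 ± 0.28 in Q111 striatum and 11.14 ± 0.38 in wild-type striatum (SD, n = 6 each), against 2.90 ± 0.27 in Q111 cerebellum and 2.95 ± 0.29 in wild-type cerebellum. Gabra6, a GABA receptor subunit of cerebellar granule cells, averaged 2.70 in Q111 striatum and 2.65 in wild-type striatum, against 13.84 in Q111 cerebellum and 13.78 in wild-type cerebellum. These are whole-tissue RNAs, in which fewer cells of a type and less RNA per cell cannot be told apart.

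AMPA receptors carry the fast excitatory current at most synapses and are assembled from the GRIA gene products, of which the edited product of Gria2 makes the channel almost impermeable to calcium. NMDA receptors open when glutamate is bound while the membrane is depolarised, admit calcium, and combine an obligatory Grin1 product with Grin2 or Grin3 products that set their kinetics. Striatal projection neurons receive dense glutamatergic input from the cortex and thalamus, and calcium entry through NMDA receptors holding the Grin2b product has long been studied in Huntington's disease models. In the cerebellum, mature granule cells are known for Grin2c and Bergmann glia for Gria4.

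Promoter windows in the RefSeq table (mouse build GRCm38.p6) existed for 5 of the 10 genes, and 3 of them are shown because these genes gave large tissue differences and carry a motif that was searched for. Each is the 250 bases before the start used for that window, on the minus strand, written 5′ to 3′ with the motif in capitals. That start need not be the outer end of the annotated gene. The Gria2 window lies wholly within its gene, which reaches 80804227. The Grin2c window overlaps its gene, which reaches 115267297. The motifs were chosen after the sequences had been read and were searched on both strands. Gria2 is known as a target of the repressor REST, which binds RE1 elements and which wild-type huntingtin is known to bind. In Gria2 the capitals mark the RE1 core, which was found on the reverse strand with its first base 173 bases before the start.
Gria2, chr3:80802836-80803085: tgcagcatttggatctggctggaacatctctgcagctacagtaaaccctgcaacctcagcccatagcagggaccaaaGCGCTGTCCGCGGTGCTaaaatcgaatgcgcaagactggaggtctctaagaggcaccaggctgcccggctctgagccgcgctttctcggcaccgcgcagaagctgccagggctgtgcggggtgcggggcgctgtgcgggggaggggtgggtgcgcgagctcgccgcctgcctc
In Gria4 the capitals mark CCAAT, first bases 222 and 5 bases before the start.
Gria4, chr9:4796235-4796484: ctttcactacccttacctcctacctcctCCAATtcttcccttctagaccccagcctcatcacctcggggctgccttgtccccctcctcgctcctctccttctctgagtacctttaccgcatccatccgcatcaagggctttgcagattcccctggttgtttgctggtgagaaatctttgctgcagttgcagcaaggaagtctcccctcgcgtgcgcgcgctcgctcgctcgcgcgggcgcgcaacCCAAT
In Grin2c the capitals mark the GC box GGGCGG, first bases 50, 40 and 35 bases before the start, the last pair sharing 1 base.
Grin2c, chr11:115267244-115267493: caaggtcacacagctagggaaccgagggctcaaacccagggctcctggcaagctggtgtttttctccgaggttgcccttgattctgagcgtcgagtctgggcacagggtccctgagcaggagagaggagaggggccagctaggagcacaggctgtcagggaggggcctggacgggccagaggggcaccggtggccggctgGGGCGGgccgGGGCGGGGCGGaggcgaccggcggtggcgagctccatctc
Among 32851 windows of 250 bases, 3 held the RE1 core (0.00913%), 10756 the GC box (32.7%) and 11120 the CCAAT motif (33.9%). The RE1 core was searched as a fixed string, longer than the other motifs, with a single letter left free. Its share is therefore that of this exact string and not of RE1 elements in general. It is not set against the shares of the shorter motifs. A match is a description of the letters and not of binding.

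The striatum and the cerebellum differed in which subunit transcripts they held, and the largest of these differences were far above any between the genotypes. Grin2b, Gria3 and 2 of the 3 Gria2 probe sets were higher in striatum, Gria4, Grin2c and the other Gria2 probe set, 1453098_at, were higher in cerebellum, and Gria1 did not pass the test between the tissues. In Q111 arrays 13 of the 16 probe sets passed limma's moderated test at a Benjamini-Hochberg adjusted p under 0.05, 7 of them higher in striatum (31.3% of all tested probe sets were) and 6 lower (40.1%). In wild-type arrays 12 of the 16 passed, 6 higher in striatum (30.6% of all were) and 6 lower (41.2%). Most of the array differs between these tissues, with 71.4% of all tested probe sets called in Q111 and 71.8% in wild type, so these counts lie near the background. A called difference of at least 2-fold was less common over the array, at 25% in Q111 and 25.2% in wild type, and held for 11 of the 16 in Q111 and 9 of the 16 in wild type. The groups did not overlap for 12 of the 16 in Q111, where 51.2% of all tested probe sets did not overlap. In wild type they did not for 11, where 52.2% did not. The 2-fold and non-overlap counts include probe sets of Grin2b and Gria4 that were under 4 in a tissue. They also count several probe sets of the same gene separately. These counts are therefore not read as an enrichment of the receptor genes. Whether the tissues were normalised together is not given, and the lowest value on an array was 0.36 to 0.38 in striatum and -0.77 to -0.66 in cerebellum. After quantile normalisation of all 24 arrays 14 member probe sets passed in Q111 and 12 in wild type. Both tissue comparisons are given as log2 striatum minus cerebellum, and a probe set's value is not set against another's.

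**Figure D1:**
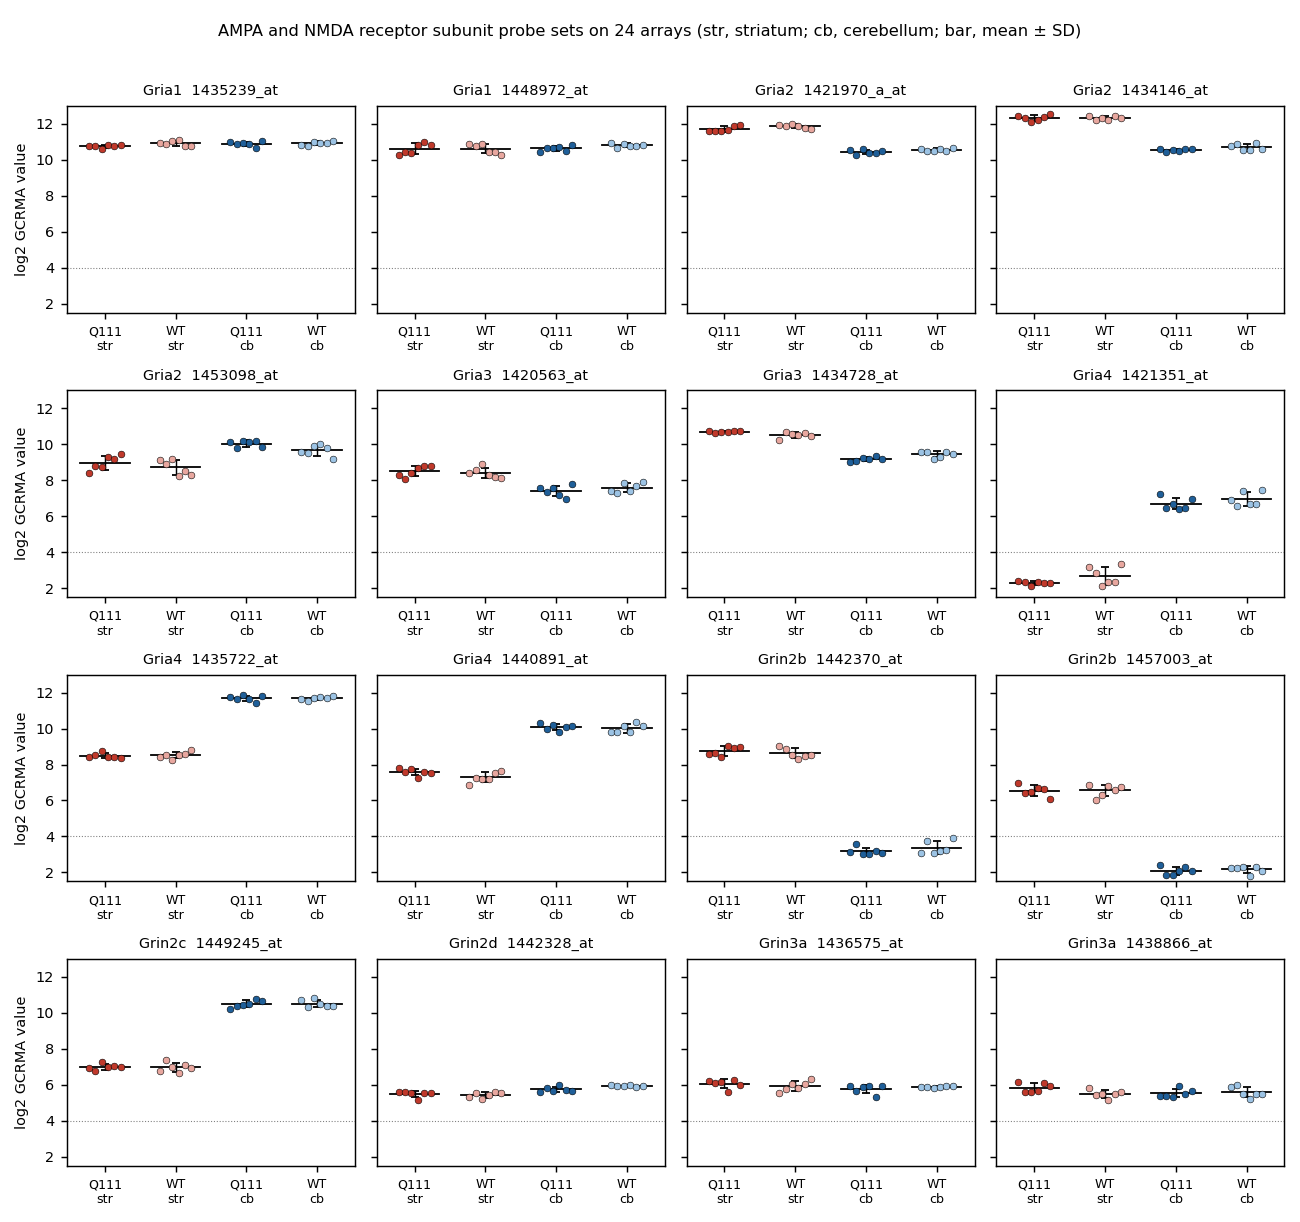
Log2 GCRMA value (vertical axis) of each of the 16 tested subunit probe sets on all 24 arrays, 1 point per array, by group on the horizontal axis, with bars for the mean ± SD and a dotted line at the filter value of 4. Grin2b arrays of cerebellum lie under the line and those of striatum above it, while Gria4 and Grin2c are higher in cerebellum and the 4 Gria1 groups overlap.

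Grin2b, the NMDA subunit that dominates in the developing brain and stays high in the adult forebrain, gave the largest tissue difference. Its probe set 1442370_at read 8.39, 8.78 and 9.03 in Q111 striatum (lowest, median, highest) and 8.30, 8.51 and 9.04 in wild-type striatum. In cerebellum it read 3.02, 3.10 and 3.58 in Q111 and 3.08, 3.21 and 3.90 in wild type. All cerebellar arrays were therefore under the filter value of 4, and none came near a striatal array. The fitted differences were 5.59 (SE 0.16, adjusted p 7.87e-20) in Q111 and 5.24 (SE 0.16, adjusted p 2.75e-19) in wild type. With every value under 4 raised to 4, Grin2b was at least 27.1-fold higher in striatum in Q111 and at least 24.5-fold higher in wild type. The second tested Grin2b probe set, 1457003_at, was at least 5.83-fold higher in striatum in Q111 and at least 5.89-fold higher in wild type on the same bound. The other Grin2b probe sets, 1422223_at and 1431700_at, stayed at group means of 2.09 to 2.48 in both tissues and were not tested.

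Grin2c, the subunit of mature cerebellar granule cells, ran the other way. Probe set 1449245_at read 6.76, 7.0 and 7.29 in Q111 striatum and 6.68, 6.96 and 7.35 in wild-type striatum, against 10.23, 10.48 and 10.76 in Q111 cerebellum and 10.32, 10.44 and 10.80 in wild-type cerebellum. No striatal array reached a cerebellar one, and all groups were above 4. The level in striatum was 11.3-fold lower in Q111 (log2 difference -3.49, SE 0.12, adjusted p 2.41e-18) and 11.7-fold lower in wild type (-3.55, SE 0.12, adjusted p 1.75e-18).

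Grin2d, a subunit known from interneurons and the brainstem, was modestly lower in striatum. Probe set 1442328_at read 5.16, 5.56 and 5.60 in Q111 striatum and 5.19, 5.48 and 5.58 in wild-type striatum, against 5.60, 5.69 and 5.99 in Q111 cerebellum and 5.86, 5.94 and 5.99 in wild-type cerebellum. The wild-type tissues were clearly apart, while in Q111 the highest striatal array and the lowest cerebellar array were nearly level. The difference was -0.24 in Q111 (SE 0.08, adjusted p 0.0117) and -0.50 in wild type (SE 0.08, adjusted p 7.65e-06). With replicate numbers 1 to 3 alone the Q111 difference was -0.12 and did not pass.

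Grin3a, whose product lowers the calcium permeability of NMDA receptors, differed little between the tissues. Probe set 1436575_at read 5.60, 6.14 and 6.27 in Q111 striatum and 5.34, 5.90 and 5.94 in Q111 cerebellum, against 5.56, 5.93 and 6.34 in wild-type striatum and 5.83, 5.89 and 5.92 in wild-type cerebellum. The groups overlapped in both genotypes. Its difference of 0.28 in Q111 passed narrowly (adjusted p 0.0435), and that of 0.04 in wild type did not (adjusted p 0.764). The Q111 call was lost on leaving out replicate 1, 2, 3 or 5 of Q111 striatum, with differences of 0.25, 0.27, 0.26 and 0.24, or replicate 2 or 5 of Q111 cerebellum, with 0.26 and 0.19. Probe set 1438866_at gave 0.30 in Q111 (adjusted p 0.058) and -0.10 in wild type (adjusted p 0.537). The only Grin2a probe set, 1421616_at, read 2.04 to 2.28 on all 24 arrays, under the filter value in both tissues, and was not tested.

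Gria4 was the AMPA subunit most strongly tilted to the cerebellum, and its 3 probe sets had the same sign. Probe set 1435722_at read 8.37, 8.43 and 8.77 in Q111 striatum and 8.26, 8.53 and 8.80 in wild-type striatum, against 11.45, 11.70 and 11.84 in Q111 cerebellum and 11.52, 11.70 and 11.80 in wild-type cerebellum. The tissues did not overlap, and the genotypes overlapped within each. Gria4 was 9.16-fold lower in striatum in Q111 (-3.20, SE 0.09, adjusted p 3.72e-20) and 8.9-fold lower in wild type (-3.15, SE 0.09, adjusted p 4.69e-20). Probe set 1440891_at gave differences of -2.50 in Q111 and -2.73 in wild type. Probe set 1421351_at was under 4 on every striatal array, and the bound on its difference was at least 6.49-fold lower in Q111 and at least 7.72-fold lower in wild type.

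Gria3 was higher in striatum by both of its probe sets and Gria2 by 2 of its 3. Gria2 probe set 1434146_at read 12.10, 12.36 and 12.53 in Q111 striatum and 12.20, 12.34 and 12.45 in wild-type striatum, against 10.44, 10.58 and 10.59 in Q111 cerebellum and 10.53, 10.69 and 10.95 in wild-type cerebellum. It was 3.46-fold higher in Q111 (1.79, SE 0.08, adjusted p 1.64e-15) and 3.07-fold higher in wild type (1.62, SE 0.08, adjusted p 1.12e-14), and 1421970_a_at gave 1.28 in Q111 and 1.31 in wild type. Probe set 1453098_at of the same gene had the opposite sign, with -1.06 in Q111 (SE 0.18, adjusted p 1.75e-05) and -0.96 in wild type (SE 0.18, adjusted p 6.17e-05), so the probe sets of Gria2 disagreed and the gene is described by each of them. Where each probe set lies on the transcript was not given in the sources used here.

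Gria3 probe set 1434728_at read 10.63, 10.71 and 10.74 in Q111 striatum and 10.22, 10.55 and 10.69 in wild-type striatum, against 9.04, 9.17 and 9.35 in Q111 cerebellum and 9.17, 9.50 and 9.57 in wild-type cerebellum. The striatal arrays lay wholly above the cerebellar ones in each genotype. The differences were 1.53 in Q111 (SE 0.08, adjusted p 1.48e-14) and 1.08 in wild type (SE 0.08, adjusted p 1.08e-11), and the second probe set, 1420563_at, gave 1.09 in Q111 and 0.83 in wild type. Gria1, whose product is recruited to synapses in long-term potentiation, passed in neither genotype. Its probe set 1435239_at differed by -0.13 in Q111 (95% interval -0.28 to 0.01) and 0.00 in wild type (-0.14 to 0.15). Its probe set 1448972_at differed by -0.00 in Q111 (-0.25 to 0.24) and -0.20 in wild type (-0.45 to 0.04).

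**Figure D2:**
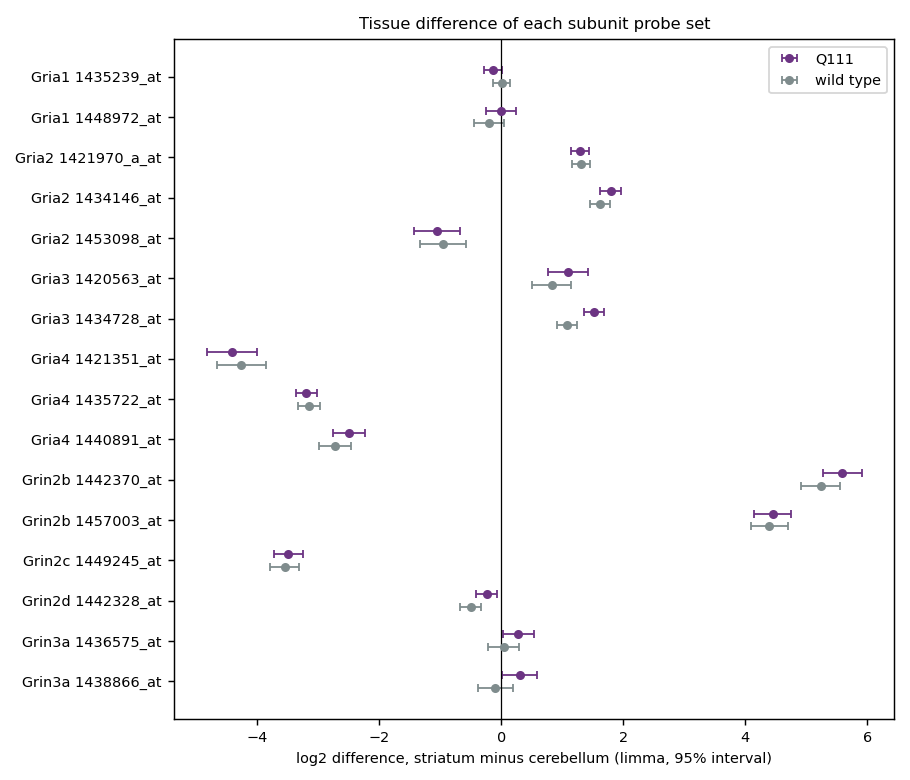
Log2 difference, striatum minus cerebellum (horizontal axis), of each tested subunit probe set in Q111 and in wild type, as points with 95% intervals from limma. Grin2b 1442370_at lies farthest to the right at 5.59 in Q111 and 5.24 in wild type, fitted from cerebellar arrays under 4, Gria4 and Grin2c lie to the left, and the Gria2 probe set 1453098_at lies left of 0 while the other Gria2 probe sets lie right of it.

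The comparison of Q111 with wild-type mice asked whether the expanded huntingtin allele changed these transcripts. No receptor subunit passed the test in either tissue. In striatum 0 of the 16 probe sets were called, where 2.87% of all tested probe sets were (595), and the lowest adjusted p among them was 0.184. At an unadjusted p under 0.05 limma gave 5 of the 16, where 19.0% of all tested probe sets lay under it. The Q111 minus wild-type differences ran from -0.41 to 0.34, 11 of them above 0. For the 15 probe sets with both striatal means at 4 or above, the 95% intervals over all 6 replicate numbers reached from -0.31 to 0.65. No probe set separated the genotypes, where 2.39% of all tested probe sets did in striatum.

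In cerebellum 0 of the 16 were called, where 0.458% of all tested probe sets were (95), and the lowest adjusted p was 0.130. At an unadjusted p under 0.05 limma gave 2 of the 16, where 13.8% of all tested probe sets lay under it. The differences ran from -0.27 to 0.37, with 3 above 0 and 13 below, and the intervals from -0.65 to 0.75. Again 0 of the 16 separated the genotypes, against 1.12% of all tested probe sets. The two-sided exact permutation test over the arrays of a tissue, whose smallest possible p is 0.00216, gave an unadjusted p under 0.05 for 3 of the 16 in striatum, where 17.1% of all tested probe sets had one, and for 4 of the 16 in cerebellum, where 13.5% had one. These member counts lie near the background shares.

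The AMPA subunit values behind these counts were small shifts inside overlapping groups. In striatum Gria1 probe set 1435239_at read 10.58, 10.78 and 10.83 in Q111 and 10.80, 10.91 and 11.11 in wild type. All 6 Q111 arrays were below the wild-type mean, although the groups overlapped. The difference of -0.17 (SE 0.07) did not pass (adjusted p 0.184), with an exact permutation p of 0.0173. Gria3 probe set 1434728_at, whose group values are given above, differed by 0.18 in striatum (SE 0.08, adjusted p 0.215), with all 6 Q111 arrays above the wild-type mean. In cerebellum it differed by -0.27 (SE 0.08, adjusted p 0.130), with all 6 Q111 arrays below the wild-type mean. Gria2 probe set 1453098_at read 9.77, 10.12 and 10.19 in Q111 cerebellum and 9.17, 9.69 and 10.00 in wild-type cerebellum, a difference of 0.37 (SE 0.18, adjusted p 0.369). Of the other Gria2 probe sets, 1434146_at differed by 0.00 in striatum (95% interval -0.17 to 0.18) and -0.17 in cerebellum (-0.34 to 0.00). Probe set 1421970_a_at differed by -0.15 in striatum (-0.30 to 0.00) and -0.12 in cerebellum (-0.27 to 0.03). Gria4 probe set 1435722_at differed by -0.04 in striatum (-0.21 to 0.14) and 0.01 in cerebellum (-0.17 to 0.18), the narrowest intervals among its probe sets. Gria4 probe set 1440891_at read 7.27, 7.59 and 7.78 in Q111 striatum and 6.86, 7.24 and 7.66 in wild-type striatum, a difference of 0.30 (SE 0.13, adjusted p 0.203) that was 0.59 in replicate numbers 1 to 3 and -0.00 in numbers 4 to 6. The groups overlapped. Gria4 probe set 1421351_at was under 4 on all striatal arrays, so its fitted difference of -0.41 has no reading as a level change.

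The NMDA subunits gave the same outcome. In striatum Grin3a probe set 1438866_at read 5.58, 5.79 and 6.18 in Q111 and 5.18, 5.48 and 5.83 in wild type. Its difference of 0.34 (SE 0.14, adjusted p 0.184) was the highest in striatum, with 6 of 6 Q111 arrays above the wild-type mean and the groups overlapping, while 1436575_at of the same gene gave 0.12 (adjusted p 0.633). Grin2b probe set 1442370_at differed by 0.14 in striatum (95% interval -0.18 to 0.46) and 1457003_at by -0.01 (-0.31 to 0.29). Grin2c differed by 0.04 in striatum (-0.20 to 0.28) and -0.02 in cerebellum (-0.26 to 0.22). Grin2d differed by 0.06 in striatum (-0.11 to 0.23) and -0.20 in cerebellum (-0.37 to -0.03), where its adjusted p was 0.273.

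**Figure D3:**
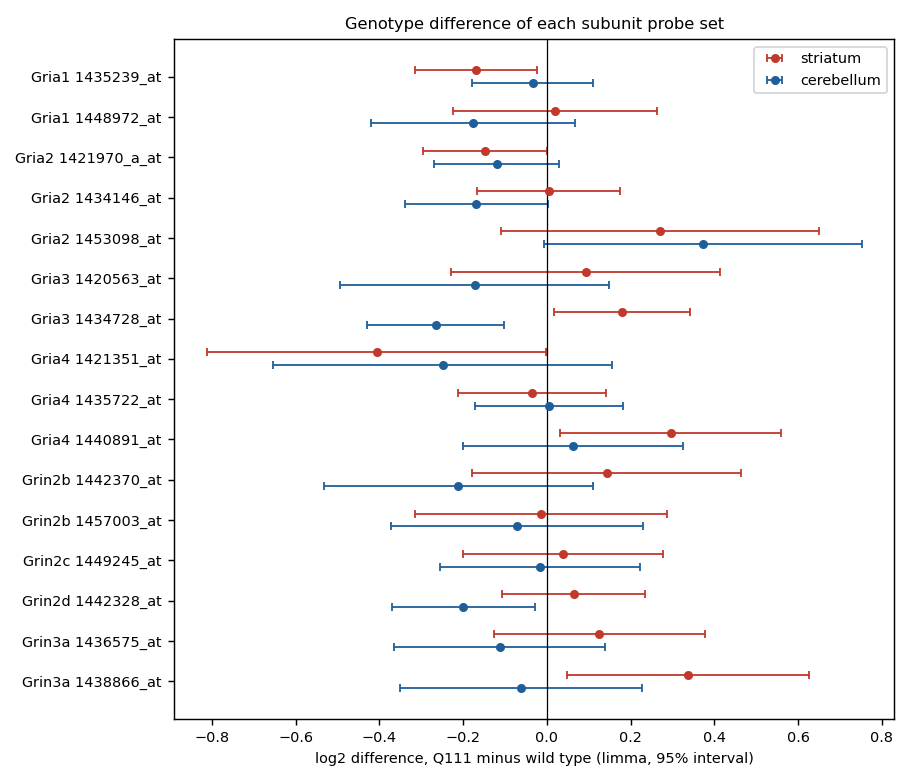
Log2 difference, Q111 minus wild type (horizontal axis), of each tested subunit probe set in striatum and in cerebellum, as points with 95% intervals from limma. The points lie between -0.41 and 0.37, and for Gria3 1434728_at the striatal point lies right of 0 and the cerebellar point left of it.

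Whether the genotype difference itself differed between the tissues was tested as an interaction, the striatal difference minus the cerebellar one. It was called for 0 of the 16 probe sets, where 0.0868% of all tested probe sets were called (18). At an unadjusted p under 0.05 limma gave 2 of the 16, where 10.1% of all tested probe sets lay under it. Gria3 probe set 1434728_at had the largest value, 0.44 (SE 0.11), with an adjusted p of 0.10. Its adjusted p ran from 0.070 to 0.176 on leaving out 1 array and from 0.077 to 0.431 under the other alternatives, and the other probe set was that of Grin2d at 0.26 (adjusted p 0.451).

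The replicate numbers were also read as 2 sets, 1 to 3 and 4 to 6, and in striatum the genotype difference of 2 subunit probe sets differed between them. Within a tissue the means of the sets were nearly equal over the probe sets (SD of their difference 0.0534 in striatum), while the genotype difference had opposite signs in them for 12 of the 16 subunit probe sets. Over all tested probe sets the share was 49.9% in striatum. In cerebellum it was so for 7 of the 16, where the share was 43.0%. What the numbers stand for is not given in the labels. The genotype difference was compared between the sets with limma, a comparison chosen after the data had been seen. It was called for 2 of the 16 in striatum, where 2.9% of all tested probe sets were, and for 0 of the 16 in cerebellum, where 0.00482% were.

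Gria1 probe set 1448972_at showed this plainly. In replicate numbers 1 to 3 the striatal arrays read 10.28, 10.45 and 10.40 in Q111 and 10.86, 10.75 and 10.89 in wild type. In numbers 4 to 6 they read 10.85, 10.98 and 10.83 in Q111 and 10.43, 10.45 and 10.30 in wild type. The Q111 arrays were thus all below the wild-type arrays in one set and all above them in the other. The difference was -0.45 in numbers 1 to 3 and 0.49 in numbers 4 to 6, a gap of -0.95 (SE 0.14, adjusted p 0.00119). Over all 6 numbers it was 0.02. The other Gria1 probe set, 1435239_at, did not turn, with -0.25 in numbers 1 to 3 and -0.09 in numbers 4 to 6 (adjusted p of the gap 0.605).

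Gria2 probe set 1453098_at went the same way, from arrays that read 8.42, 8.77 and 8.74 in Q111 and 9.10, 8.92 and 9.19 in wild type in numbers 1 to 3. In numbers 4 to 6 they read 9.32, 9.19 and 9.43 in Q111 and 8.26, 8.49 and 8.29 in wild type. The difference was -0.43 in the first set and 0.97 in the second, a gap of -1.39 (SE 0.25, adjusted p 0.00448). The gap did not pass for the other Gria2 probe sets. Probe set 1434146_at gave -0.03 and 0.04 (adjusted p of the gap 0.866) and 1421970_a_at -0.32 and 0.02 (adjusted p 0.167). Gria3 probe set 1420563_at gave -0.35 and 0.54 (adjusted p of the gap 0.0659) and Grin2b probe set 1442370_at -0.26 and 0.55 (adjusted p 0.115). Grin2b probe set 1457003_at turned the other way, with 0.22 and -0.25 (adjusted p 0.413). Gria3 probe set 1434728_at was steadier, with 0.20 in numbers 1 to 3 and 0.15 in numbers 4 to 6.

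Some lists of cell type markers also had differences of opposite sign in these sets in striatum, and those that turned most are given here. Others kept their sign, such as myelinating oligodendrocytes at -0.25 and -0.31 and Purkinje cells at -0.14 and -0.07. The thalamus list (4 of 6 genes measured) had a Q111 minus wild-type difference of 1.27 in the first set and -1.05 in the second, its mean per array running from 6.36 to 8.39 in Q111 striatum and 6.44 to 8.90 in wild-type striatum. Its genes all had group means of at least 4. The striatal projection neuron list (8 of 10 measured) gave -0.52 and 0.25, its mean per array running from 11.60 to 12.33 in Q111 striatum and 11.56 to 12.55 in wild-type striatum. The choroid plexus list (4 of 4 measured) gave -0.43 and 0.32, its mean per array running from 6.77 to 10.07 in Q111 striatum and 6.24 to 9.68 in wild-type striatum. The part of these markers in the subunit values was not tested.

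**Figure D4:**
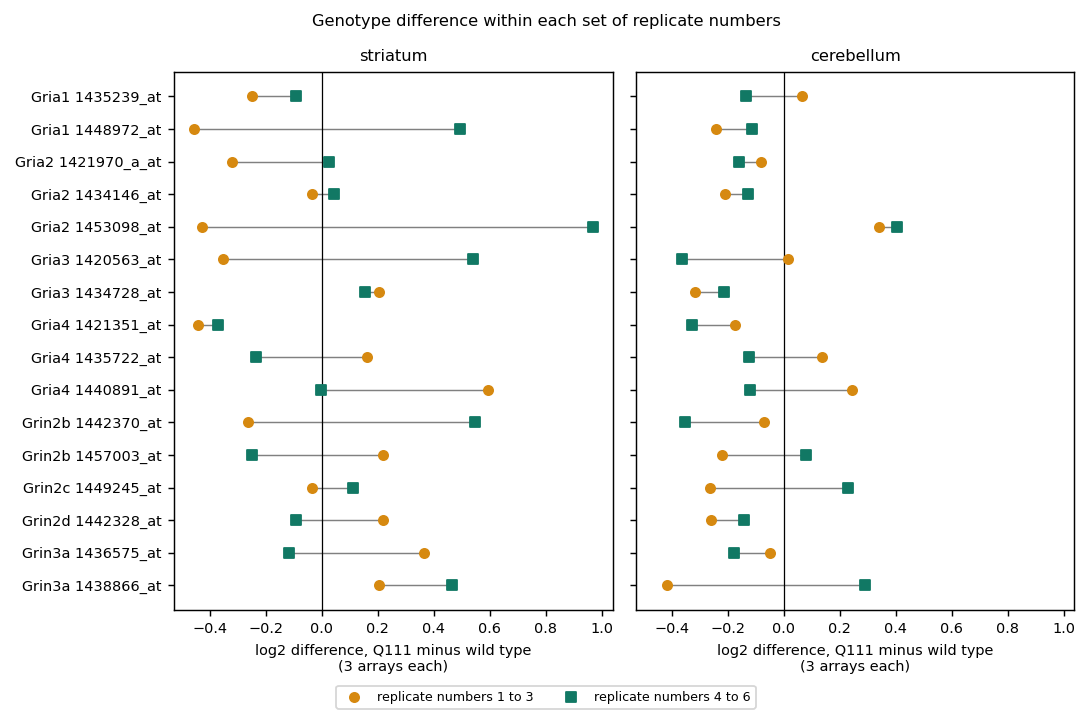
Log2 difference, Q111 minus wild type (horizontal axis), of each tested subunit probe set within replicate numbers 1 to 3 and within numbers 4 to 6 (3 arrays of each genotype in each point), in striatum on the left and in cerebellum on the right, with a line joining the sets. In striatum the line of Gria2 1453098_at runs between -0.43 and 0.97 and that of Gria1 1448972_at between -0.45 and 0.49.

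The partner genes were read from 4 lists, with 1 probe set per gene. Nptx2 was the one gene of these lists (5, 11, 12 and 13 genes measured) past the threshold between the genotypes. A single call among so many genes lies near the share of all genes called, given below. Nptx2 encodes neuronal pentraxin 2, a secreted protein that clusters AMPA receptors. In striatum it read 6.66, 7.45 and 7.67 in Q111 and 6.51, 6.79 and 7.21 in wild type, so the groups overlapped. It rose by 0.54 in Q111 striatum (SE 0.13, adjusted p 0.0308), where 2.78% of all genes tested with 1 probe set were called, against -0.14 in cerebellum (adjusted p 0.689). Its cerebellar means of 4.01 in Q111, with arrays down to 3.73, and 4.14 in wild type lay at the filter value. That limits the cerebellar difference and the interaction. The interaction of 0.68 did not pass (adjusted p 0.142), but passed without Q111 striatum replicate 2 (0.82, adjusted p 0.0287). The call was lost on leaving out any of 8 striatal arrays (Q111 replicates 1, 3, 4, 5 and 6 and wild-type replicates 2, 4 and 6), with differences of 0.48 to 0.56 and adjusted p of 0.0518 to 0.0774. It was 0.38 in numbers 1 to 3 alone (adjusted p 0.435) and 0.70 in numbers 4 to 6 alone (adjusted p 0.0334). With no filter its adjusted p was 0.0601, with a term for the number set 0.0539 and with the striatal arrays fitted alone 0.110.

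Of the markers of cerebral cortex projection neurons (7 of 8 measured), 2 also rose in Q111 striatum. The Q111 minus wild-type difference of the list's mean was 0.82 in the first number set and 0.25 in the second. Its mean per array ran from 6.72 to 7.82 in Q111 striatum and 6.44 to 7.22 in wild-type striatum, with none of its genes' group means under 4 there. Neurod6 rose by 1.12 (SE 0.20, adjusted p 0.00345) and Fezf2 by 0.71 (SE 0.15, adjusted p 0.0132), both transcription factors of cortical neurons, and the other 5 did not pass. Of the microglia markers (5 of 5 measured), 2 rose and 1 fell in Q111 striatum. The difference of that list's mean was -0.02 in the first number set and 0.33 in the second. The part of the cortex and microglia markers in the Nptx2 value was not tested.

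The remaining partner genes passed in no genotype comparison. Among the other ionotropic glutamate receptor subunits (5 of 8 measured), the lowest p in striatum belonged to Grik3, a kainate receptor subunit, at 0.22 (adjusted p 0.135), and Grik2 at -0.15 (adjusted p 0.411). The list's median difference was 0.13 in striatum, where that of all genes was -0.03. Among the AMPA receptor auxiliary subunits (11 of 13 measured) they were Cacng2, or stargazin, at 0.30 (adjusted p 0.184) and Cacng7, whose striatal means of 3.25 in Q111 and 2.79 in wild type were under 4, so that its fitted difference of 0.47 (adjusted p 0.248) has no reading. The list median was 0.07. Among the kinases and phosphatases that act on the receptors (13 of 14 measured) they were Camk2a at 0.41 (adjusted p 0.114) and Prkca at -0.28 (adjusted p 0.250), with a list median of -0.04. In the anchoring, trafficking and editing list (12 of 13 measured) the genes other than Nptx2 did not pass, and the list median was 0.03. Dlg4 had the largest difference of that list in striatum, at 1.18, above that of Nptx2. Its SE was also large, at 0.42, and it did not pass (adjusted p 0.119). No gene of the 4 lists passed in cerebellum, where 0.446% of all genes did, or in the interaction.

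Between tissues many partner genes also differed, to an extent that varied by list. All 11 measured auxiliary subunits passed in both genotypes, 7 higher in striatum and 4 lower, where 73.6% of all genes passed in Q111 and 73.8% in wild type. Among the 4 lower was Cacng7, whose Q111 means of 3.25 in striatum and 3.95 in cerebellum were both under 4. Its wild-type means were 2.79 in striatum and 4.21 in cerebellum. With values under 4 raised to 4 it differed by only -0.15 in Q111 and -0.37 in wild type. Their median fitted difference was 3.13 in Q111 and 2.89 in wild type, where that of all genes was -0.07 in Q111 and -0.08 in wild type. With values under 4 raised to 4, an alternative chosen after seeing the data that touched mainly Cacng3, Cacng7 and Cnih3, the list median was 1.17 in Q111 and 1.29 in wild type. Cacng3, a stargazin relative, was under 4 in cerebellum and at least 18.8-fold higher in striatum in Q111 and at least 18.0-fold higher in wild type. Gsg1l, an auxiliary subunit that slows recovery from desensitisation, was higher by 3.74 in Q111 and 3.66 in wild type, and Cnih2, a cornichon that carries AMPA receptors to the surface, by 3.13 in Q111 and 2.93 in wild type. Shisa6, which keeps AMPA receptors from desensitising, was lower in striatum, at -4.24 in Q111 and -3.89 in wild type, as was stargazin, at -0.85 in Q111 and -0.97 in wild type.

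The counts of the other lists are read against the share of all genes called in either direction, 73.6% in Q111 and 73.8% in wild type. Of the other ionotropic subunits, 4 were higher in striatum and 1 lower in both genotypes. Grid1, a delta receptor subunit, differed by 2.53 in Q111 and 2.61 in wild type, and Grik5 by 2.63 in Q111 and 2.08 in wild type. Grik1 was the one that was lower, at -2.35 in Q111 and -2.52 in wild type. In the anchoring, trafficking and editing list 7 genes were higher in striatum and 4 lower in Q111, and 5 higher and 3 lower in wild type. Its median difference was small, at 0.25 in Q111 and 0.10 in wild type, where 4 of the 12 genes were not called. Nptx1 differed by -2.29 in Q111 and -2.74 in wild type, and Nptx2 by 3.35 in Q111 and 2.67 in wild type, so the pentraxins lay on opposite sides. With values under 4 raised to 4, Nptx2 differed by 3.29 in Q111 and 2.67 in wild type. Adarb1, the enzyme that edits the Gria2 transcript, was lower in striatum at -0.855 in Q111 and -0.952 in wild type. Of the kinases and phosphatases, 10 were higher and 3 lower in Q111, and 8 higher and 3 lower in wild type. Ptpn5, the striatal-enriched phosphatase that acts on NMDA receptors, led them at 7.41 in Q111 and 7.63 in wild type, followed by Camk2a, the kinase of long-term potentiation, at 4.99 in Q111 and 4.52 in wild type.

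**Figure D5:**
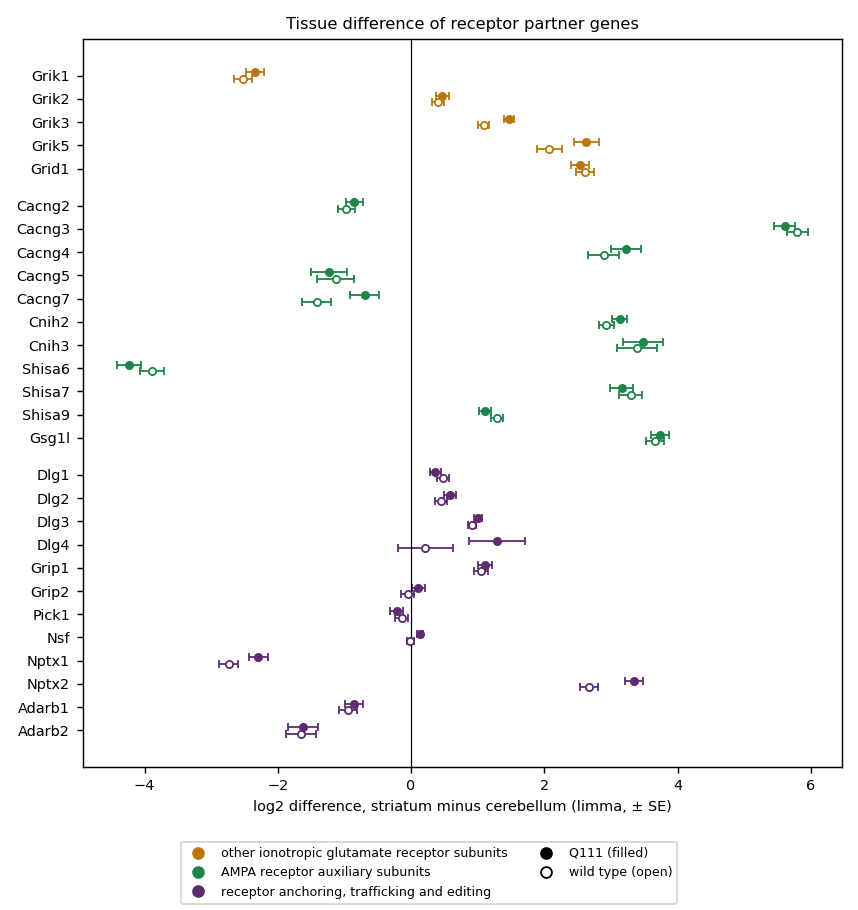
Log2 difference, striatum minus cerebellum (horizontal axis), of the measured partner genes of 3 lists, as points ± SE from limma, filled for Q111 and open for wild type. Points of Cacng3, Cacng7 and Cnih3 are fitted values with a tissue under 4, and for Cacng7 in Q111 with both tissues under 4. Among the other genes Gsg1l lies farthest to the right at 3.74 in Q111 and 3.66 in wild type, and Shisa6 farthest to the left at -4.24 in Q111 and -3.89 in wild type.

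For each subunit with a wild-type tissue difference of at least 1 log2, the genes with the most similar pattern were found by the root mean square difference of log2 values centred on each gene's own mean, over 24 arrays and 10765 other genes. The tissue difference makes up most of this pattern, so the neighbours share it. Gria2 lay nearest to Myt1l (0.152), Tomm70a (0.153) and Nap1l1 (0.158). Gria3 lay nearest to Rhob (0.133), the kainate receptor gene Grik3 (0.149) and Enpp4 (0.158). Gria4 lay nearest to Cerk (0.155), Olfm3 (0.164) and Btbd3 (0.173). Grin2c lay nearest to Tspan9 (0.205), Shf (0.217) and Ctbp2 (0.226), and Grin2b, whose cerebellar values are under 4, nearest to 2900052N01Rik (0.313), Pdzd2 (0.321) and Kcnf1 (0.326).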

How the data were processed

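The 24 Affymetrix mouse arrays fell into 4 groups of 6 by the genotype and tissue in the labels. The authors deposited 1 table of 45101 probe sets, processed with GCRMA per the submitters' processing notes, in a release not given in the sources used here. This method corrects background by probe sequence, normalises between arrays and summarises a probe set, which compresses low values near the floor. The log base is not stated, and the deposited values, from -0.77 to 16.33, were read as log2. All columns carried a sample, and 0 were left unmapped.

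After 64 control probe sets were left out, 20738 of 45037 had a mean of at least 4 in a tissue and were tested with limma 3.58.1 in R 4.3.3 (lmFit and eBayes, 4 group means, 20 residual degrees of freedom), with Benjamini-Hochberg adjustment over them and a threshold of 0.05. Array number limits the precision. Genes were named from the platform annotation of 2016. Of the probe sets that were not controls, 34945 had 1 symbol, 932 had several and 9160 had none. Probe sets of a gene were reported separately, and where 1 value per gene was needed the brightest probe set over all arrays was used. The scripts were tested on simulated data.

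All 10 subunits were named. Partner genes were named where they passed in a genotype comparison, otherwise the 2 of a list with the lowest p in striatum. Dlg4 and the tissue examples were chosen after their values were seen. The members and lists were chosen with earlier results of these data known. Sequences came from RefSeq (GRCm38.p6). The alternatives tried were other filters and normalisations, variance and array weights, a replicate block, the number sets, a stricter threshold, only the groups compared, and leaving out each array.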

Additional observations from a re-analysis of the deposited data

Results flagged for a closer look

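In 64 checks of a subunit probe set within a group of 6 arrays, 3 held an array far from the other 5, and chance gives about 1 in 20. Gria1 probe set 1435239_at read 10.5836 in Q111 striatum replicate 3, where the other arrays of the group lay between 10.77 and 10.83. Grin2d probe set 1442328_at read 5.1551 in Q111 striatum replicate 4, where the others lay between 5.55 and 5.60. Grin2b probe set 1442370_at read 3.5829 in Q111 cerebellum replicate 2, where the others lay between 3.02 and 3.17 and all were under 4.

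Gria3 probe set 1434728_at had an interaction of 0.4447, because every Q111 array lay above the wild-type mean in striatum and below it in cerebellum. The test of that difference did not pass (adjusted p 0.10, limma). In striatum the genotype difference in replicate numbers 1 to 3 minus that in numbers 4 to 6 was -0.9476 for Gria1 probe set 1448972_at (adjusted p 0.00119) and -1.3946 for Gria2 probe set 1453098_at (adjusted p 0.00448). The causes were not tested.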

How the results depend on the processing

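The subunit count stayed at 0 of 16 for both genotype comparisons and the interaction under every alternative, except in striatum with replicate numbers 4 to 6 alone, where 1 passed (Gria2 1453098_at, 0.97, adjusted p 0.0354). The wild-type tissue count was 12 to 12 on leaving out 1 array and the Q111 count 12 to 14. Under the other alternatives, 10 tissue calls of single probe sets in Q111 were lost and 3 gained, all of Grin3a or Grin2d, and 1 in wild type was gained (Gria1 1448972_at). Signs turned with numbers 1 to 3 alone for Gria2 1453098_at between genotypes in striatum (-0.43), and in the interaction for Gria1 1448972_at (-0.21) and Gria3 1420563_at (-0.37). A turn between uncalled values was counted where both exceeded their SE. The cause was not tested.

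Counts over all probe sets moved more. For striatum (595) they were 384 with no filter, 153 with the replicate block, 316 with the number set in the model, 242 in numbers 1 to 3, 251 in numbers 4 to 6 and 86 at adjusted p 0.01, and 219 to 689 without 1 array. For cerebellum (95) they were 396 with array weights, 53 with the block, 49 with the number set, 11 and 18 in the sets, 28 at 0.01, and 34 to 252 without 1 array. For the interaction (18) they were 11 with median centring, 64 with array weights, 1 with the block, 6 with the number set, 10 and 30 in the sets, 4 at 0.01, and 6 to 50 without 1 array. The tissue counts were 14551 to 14924 in wild type and 14463 to 14853 in Q111 without 1 array.

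Replicate numbers were not taken to pair the samples, because not every same-numbered pair correlated above 0.1. Between genotypes the correlations ran from -0.41 to -0.09 in striatum and -0.42 to 0.12 in cerebellum, and 0 of 6 pairs in each correlated best with their own number. Between tissues they ran from -0.05 to 0.14 in Q111, with 2 of 6 over 0.1 and 2 best with their own number, and from -0.00 to 0.18 in wild type, with 3 of 6 over 0.1, numbers 4 to 6, all best with their own. The replicate block ended the Grin3a 1436575_at tissue call in Q111 (adjusted p 0.0741) and made that of 1438866_at (0.0399), and no other subunit call changed with it.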
